A study of Cavia porcellus with 44 samples.

Results

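The transcripts of 7 genes with a known tie to the acute phase response or to iron and copper handling were followed in guinea pig liver: CRP, APCS, HPX, CP, LRG1, HAMP and STEAP4. They were taken by symbol from a count table of 11967 symbols, and all 7 were among the 7750 genes with a total of at least 200 counts over all animals, which were tested. The RNA came from 44 female Hartley guinea pigs, 1 library per animal, after 32 weeks on diets that differed in fat and in vitamin C (vitC). The high fat feed also held cholesterol and sucrose that the low fat feed lacked, so the feed contrasts are not of fat alone. Guinea pigs, like humans, cannot make vitC, and on a diet rich in fat and cholesterol they develop non-alcoholic steatohepatitis (NASH).

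LFH animals (n = 8) received the low fat, high vitC control feed throughout, and HFH animals (n = 8) the high fat, high vitC feed throughout. The other 4 groups began with 16 weeks on the high fat, low vitC feed (HFL). They then spent 16 weeks on a second feed. It was unchanged for HFL/HFL (n = 10) and was the high fat feed with high vitC for HFL/HFH (n = 6), while HFL/LFL (n = 6) and HFL/LFH (n = 6) went over to low fat, with low and with high vitC. The low fat groups were pair-fed to a high fat group to make their vitC intake comparable: LFH to HFH, HFL/LFL to HFL/HFL and HFL/LFH to HFL/HFH. Animals were killed over several days with the order randomised within groups; the day of each animal is not in the labels used here.

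In the acute phase response, cytokines released by macrophages, above all interleukin 6 and interleukin 1, make hepatocytes change the set of plasma proteins they secrete. CRP and APCS are pentraxins, ring-shaped proteins that bind damaged cells and microbes. HPX binds free heme, CP carries copper and oxidises iron, and LRG1 is a secreted leucine-rich repeat glycoprotein. HAMP encodes hepcidin, the hormone that closes the iron exporter ferroportin and that responds both to interleukin 6 and to iron stores. STEAP4 is a membrane metalloreductase of iron and copper that inflammatory cytokines can raise.

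Total counts ran from 21133807 to 35427724 per animal. A member was read from at least 19 and at most 308776 counts in an animal, so all 7 were detected in all 44 livers. CRP was the least covered, with 19 to 531 counts. Levels are given as CPM, which are counts as a share of the animal's library, scaled by edgeR's TMM factors. CPM are not divided by transcript length, so they were compared between groups for a gene and not between genes. Of 11 hepatocyte markers listed, ALB alone was analysed here. It was present in every animal, with a mean of 68663 CPM. In bulk liver, fewer cells of a type and less RNA per cell cannot be told apart.

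HFL/LFL, the group on low fat and low vitC, had the highest mean of the 6 groups for CRP, APCS, HPX, CP and LRG1. These 5 genes are on the list that the study drew from HFL/LFL against HFL/LFH in these animals. Their high place in HFL/LFL is thus not independent evidence. HAMP and STEAP4 had their highest mean in HFL/LFH. The lowest mean was in HFH for CRP, HPX, HAMP and STEAP4, in HFL/HFL for APCS and CP, and in HFL/LFH for LRG1. Among the 35 pairs of neighbours in these orders (5 for each gene), 1 passed the test adjusted over all genes: APCS between HFL/LFL and the next group, HFL/HFH (log2 0.92, SE 0.24, adjusted p = 0.00289, edgeR). STEAP4 between HFL/HFH and HFH had a difference as large against its error (1.215, SE 0.30), but in a comparison where few genes had a low p its adjusted p was 0.585 (edgeR).

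**Figure D1:**
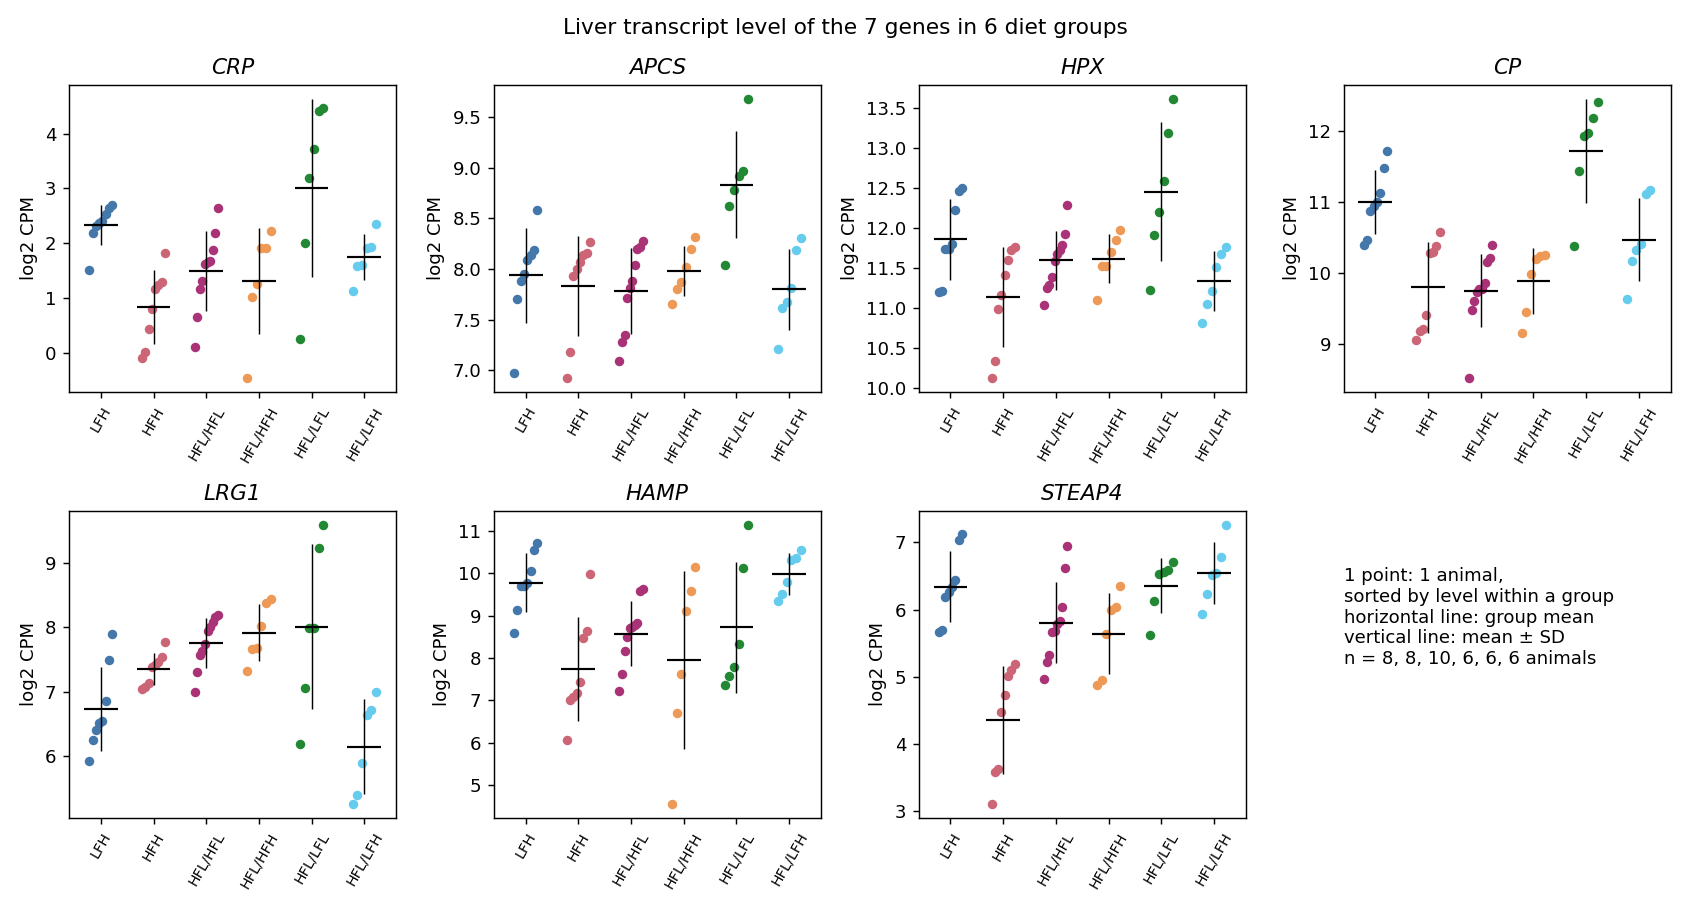
Levels of the 7 genes in the liver of 44 guinea pigs, as log2 CPM on the y axis, by diet group on the x axis. Each point is an animal, horizontal lines are group means and vertical lines mean ± SD. The HFL/LFL points reach highest for CRP, APCS, HPX, CP and LRG1 and include 1 low animal, and STEAP4 is lowest in HFH.

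CRP was 11.7 ± 8.70 CPM in HFL/LFL (mean ± SD, n = 6), with a lowest value of 1.11, a median of 11.02 and a highest of 22.1. In LFH it was 5.09 ± 1.14 (n = 8; 2.79, 5.17 and 6.42 for lowest, median and highest), and in HFL/LFH 3.40 ± 0.995 (n = 6; 2.11, 3.31 and 5.04). All 4 of the highest HFL/LFL animals lay above every animal of the other groups, and the lowest lay below every LFH and HFL/LFH animal. In HFL/HFL, CRP was 3.04 ± 1.48 (n = 10; 0.999, 3.04 and 6.15), in HFL/HFH 2.81 ± 1.44 (n = 6; 0.650, 2.99 and 4.59) and in HFH 1.88 ± 0.877 (n = 8; 0.854, 1.91 and 3.47). The 3 high fat groups overlapped each other. CRP is the classical human acute phase marker, but per the study it has not been established as an acute phase reactant in living guinea pigs.

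APCS, or serum amyloid P component, was nearly flat outside HFL/LFL. Its mean was 255.3 ± 73.5 CPM in LFH (125, 259 and 382 for lowest, median and highest), 239 ± 68.1 in HFH (121, 262 and 307) and 229 ± 62.8 in HFL/HFL (136, 229.8 and 310.2). HFL/HFH had 255.4 ± 44.3 (202, 247 and 318) and HFL/LFH 230.0 ± 62.6 (148, 215 and 316), against 483 ± 185 in HFL/LFL (263, 460.4 and 819). The 5 upper HFL/LFL animals, at 394 CPM or more, exceeded every other animal of the study, and the sixth lay inside the range of the other groups.

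HPX, the heme carrier, was 6489 ± 3781 CPM in HFL/LFL, with 2404, 5426 and 12544 for lowest, median and highest. LFH had 3922 ± 1347 (2347, 3498 and 5777) and HFL/LFH 2658 ± 660.0 (1803, 2644 and 3463). The SD of HFL/LFL was larger than that of any other group. HFL/HFL had 3187 ± 849 (2098, 3173 and 5009), HFL/HFH 3194 ± 646 (2203, 3146 and 4039) and HFH 2432 ± 909 (1117, 2515 and 3486). All ranges of HPX overlapped.

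CP, the copper ferroxidase of plasma, had its 3 highest means in the low fat groups. It was 3682 ± 1450 CPM in HFL/LFL (1336, 3957 and 5434), 2133 ± 686 in LFH (1338, 2004 and 3371) and 1513 ± 603 in HFL/LFH (795, 1315 and 2297). The high fat groups had 980 ± 280 in HFL/HFH (571, 1091 and 1214), 966 ± 407 in HFH (531, 960 and 1524) and 906 ± 273 in HFL/HFL (367, 873 and 1342). No LFH or HFL/LFL animal was as low as the highest HFL/HFH animal.

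LRG1, in contrast to CP, was lowest in the low fat groups with high vitC, at 78.4 ± 36.9 CPM in HFL/LFH (38.3, 79.5 and 127) and 117 ± 60.5 in LFH (60.6, 92.01 and 238). HFH had 165 ± 29.5 (131, 168 and 218), HFL/HFL 223 ± 55.002 (128, 229 and 291) and HFL/HFH 250.3 ± 75.1 (160.1, 231 and 345). No HFL/LFH animal reached the lowest animal of any high fat group. HFL/LFL, at 347 ± 276 (73.0, 253 and 769.8), spanned from within the HFL/LFH range to more than the highest animal of every other group.

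HAMP, the iron hormone, varied widely between animals. Its CPM were 1061 ± 349 in HFL/LFH (648, 1084 and 1503), 964 ± 438 in LFH (385, 857 and 1669) and 713 ± 843 in HFL/LFL (165, 270.1 and 2268). HFL/HFH had 462 ± 432 (23.5, 375 and 1127), HFL/HFL 428 ± 213 (148, 422 and 793) and HFH 302 ± 312 (67.3, 158 and 1019). In HFL/LFL, 4 animals lay between 165 and 321 CPM and the other 2 at 1114 and 2268. In HFL/HFH the highest animal had 47.9-fold the level of the lowest.

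STEAP4 was 97.5 ± 32.3 CPM in HFL/LFH (60.9, 92.5 and 154), 86.2 ± 33.02 in LFH (50.9, 78.7 and 140.1) and 84.2 ± 20.8 in HFL/LFL (48.9, 93.005 and 105). HFL/HFL had 60.8 ± 28.7 (31.1, 52.9 and 123), HFL/HFH 53.4 ± 20.6 (29.3, 56.7 and 81.3) and HFH 23.0 ± 11.1 (8.53, 24.2 and 36.5). Every low fat animal lay above every HFH animal, while HFL/HFL and HFL/HFH lay between and overlapped both sides.

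The effect of a high fat feed from the start was read from LFH against HFH, which differed in feed at the same vitC content. Of the 7 genes, 5 were higher in LFH, against 49.3% of all tested genes that differed in either direction and 21.7% that were higher in LFH. STEAP4 was higher by 1.90 on the log2 scale (SE 0.29, 3.74-fold, adjusted p = 6.5e-07, edgeR), and it was the only one of the 7 whose groups did not overlap, as for 8.03% of tested genes with LFH higher. HAMP was higher by 1.68 (SE 0.56, 3.19-fold, adjusted p = 0.0115, edgeR) and CRP by 1.44 (SE 0.39, 2.71-fold, adjusted p = 0.00217, edgeR). CP rose by 1.14 (SE 0.27, 2.21-fold, adjusted p = 0.000401, edgeR) and HPX by 0.69 (SE 0.25, 1.61-fold, adjusted p = 0.0221, edgeR). APCS (log2 0.10, SE 0.21) and LRG1 (-0.50, SE 0.31) did not pass.

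The call for HPX was lost without LFH animal 46 or 5, or HFH animal 61 or 6, with an adjusted p of at most 0.0586 (edgeR). On the authors' variance-stabilized values, which are compressed at low counts, CRP was higher by 0.81 (adjusted p = 0.00417, limma). HAMP was higher by 2.27 without HFH animal 88, its highest (adjusted p = 0.00088, edgeR), and by 2.29 with limma voom (adjusted p = 0.000809).

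The lists of cytokines, receptors, signal transducers, other acute phase proteins, and iron and copper genes held 52 genes that were tested, and 39 of them differed between LFH and HFH, where 49.3% of all tested genes did. The counts of single lists are small, from 3 of 5 cytokine genes to 4 of 4 negative acute phase proteins. The lists were chosen with earlier results of these data known. Of 10 other positive acute phase proteins, 5 were higher in LFH and 2 lower, with a median of 0.65 on the log2 scale beside -0.06 over all tested genes. SERPINA3, a protease inhibitor, was higher by 1.262 and AGT, angiotensinogen, by 0.94. Negative acute phase proteins, which fall in inflammation, were represented by 4 tested genes, and all 4 were higher in LFH: APOH by 1.501, ALB by 1.60 and AHSG by 0.71 among them.

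Of 5 cytokine genes tested, 3 were lower in LFH: INHBB, an activin subunit (log2 -3.67), TNF (-2.06) and CLCF1, a cytokine of the interleukin 6 family (-2.26). IL6R, the interleukin 6 receptor, was higher in LFH by 1.64, whereas TNFRSF1B (-1.10) and IL10RB (-0.78) were among the 3 of 5 receptors that were lower. Of 10 signal transducers, transcription factors and feedback inhibitors, 3 were higher and 3 lower, among them SOCS2, a feedback inhibitor (0.82), and SMAD1 (-0.50). Of 11 iron and heme genes, 2 were higher and 7 lower. BLVRB, a biliverdin reductase, was higher by 0.97, and STEAP2, a relative of STEAP4, lower (log2 -1.99), as was the heme exporter FLVCR1 (-0.58). Of 7 copper genes, 5 were higher and 1 lower, with CCS, the copper chaperone of superoxide dismutase, higher by 1.45 and COX17, which brings copper to the respiratory chain, by 0.51, and the metallothionein MT3 lower (-1.80).

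Markers of other cells moved along with this contrast. All 4 tested cholangiocyte markers were lower in LFH (median log2 -3.74), with summed levels of 145 to 380 CPM in LFH and 717 to 1289 in HFH. Stellate cell and fibroblast markers were lower for 4 of 6 and higher for 1, with sums of 417 to 799.9 CPM in LFH and 874 to 2679 in HFH. Of 6 macrophage and Kupffer cell markers 2 were higher and 2 lower, and their mean log2 CPM was 3.62 to 4.63 in LFH and 5.04 to 6.04 in HFH, while their sums overlapped. Of 10 T cell markers 1 was higher and 1 lower, with a median log2 of 0.057, and their mean log2 CPM overlapped between LFH and HFH. Their sums were 179.6 to 247 CPM in LFH and 65.1 to 135 in HFH. CD3E weighs most in these sums, with a mean of 109 CPM over all animals. Each other tested T cell marker had a mean of at most 7.90 CPM. Both tested erythroid markers were lower, with sums of 227 to 1741 CPM in LFH and 914 to 12958 in HFH. ALB, the hepatocyte marker, ranged from 68645 to 171398 CPM in LFH and from 8482 to 62665 in HFH. The part of cell makeup in the change of the 7 genes was not tested.

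After the switch of feed, HFL/LFH against HFL/HFH compared low with high fat at high vitC. Here 2 of the 7 differed, beside 35.9% of all tested genes. LRG1 was lower in HFL/LFH by 1.67 (log2 -1.67, SE 0.37, adjusted p = 0.000326, edgeR), with no overlap between the groups, as for 9.88% of tested genes with HFL/LFH lower. STEAP4 was higher by 0.87 (SE 0.33, 1.82-fold, adjusted p = 0.0344, edgeR). CP (0.63, SE 0.30) and HAMP (1.197, SE 0.64) did not pass, nor did CRP (0.28, SE 0.45), APCS (-0.15, SE 0.24) and HPX (-0.27, SE 0.29). The call for STEAP4 was lost without HFL/HFH animal 30, 15 or 22 or HFL/LFH animal 32 or 43, with an adjusted p of at most 0.104 (edgeR). HAMP passed with limma on the variance-stabilized values, at 1.99 (adjusted p = 0.0122), and with limma voom at 1.72 (adjusted p = 0.0278). CP passed with limma voom as well (adjusted p = 0.0316). HAMP also passed without HFL/HFH animal 84 (adjusted p = 0.0475, edgeR) and CP without HFL/LFH animal 33 (adjusted p = 0.0492, edgeR).

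At low vitC, HFL/LFL against HFL/HFL gave the same contrast of feeds. Here 4 of the 7 were higher in HFL/LFL, beside 37.8% of all tested genes that differed and 18.1% that were higher. These 4 are on the study's list from HFL/LFL against HFL/LFH. That list rests on the same HFL/LFL animals, so the count is not independent evidence. CP rose by 2.02 (SE 0.27, 4.07-fold, adjusted p = 9.61e-08, edgeR) and CRP by 1.95 (SE 0.38, 3.86-fold, adjusted p = 9.19e-05, edgeR). APCS rose by 1.08 (SE 0.21, 2.11-fold, adjusted p = 7.23e-05, edgeR) and HPX by 1.03 (SE 0.26, 2.04-fold, adjusted p = 0.00145, edgeR). LRG1 (0.64, SE 0.31), HAMP (0.74, SE 0.55) and STEAP4 (0.47, SE 0.29) did not pass. LRG1 passed without HFL/LFL animal 44 (0.85, adjusted p = 0.0206, edgeR) or 17 (adjusted p = 0.0463, edgeR). HAMP's difference of 0.74 went to -0.09 without animal 53, and on the variance-stabilized values CRP was higher by 1.07 (adjusted p = 0.000569, limma).

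Cell markers moved here too: 4 of 4 cholangiocyte markers and both erythroid markers were lower in HFL/LFL, 4 of 5 endothelial markers were higher, and ALB was higher by 1.41. The sums for cholangiocytes were 118 to 329 CPM in HFL/LFL and 628 to 1169.7 in HFL/HFL. Their part in the change of the 7 genes was not tested. Between HFL/LFH and HFL/HFH, 4 of 4 cholangiocyte and both erythroid markers were lower and ALB higher by 1.86, while 1 of 5 endothelial markers was higher. Of 6 stellate cell and fibroblast markers, 3 were lower and 1 higher in each of these contrasts. In HFL/LFH, 4 of 9 neutrophil markers were also lower than in HFL/HFH.

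**Figure D2:**
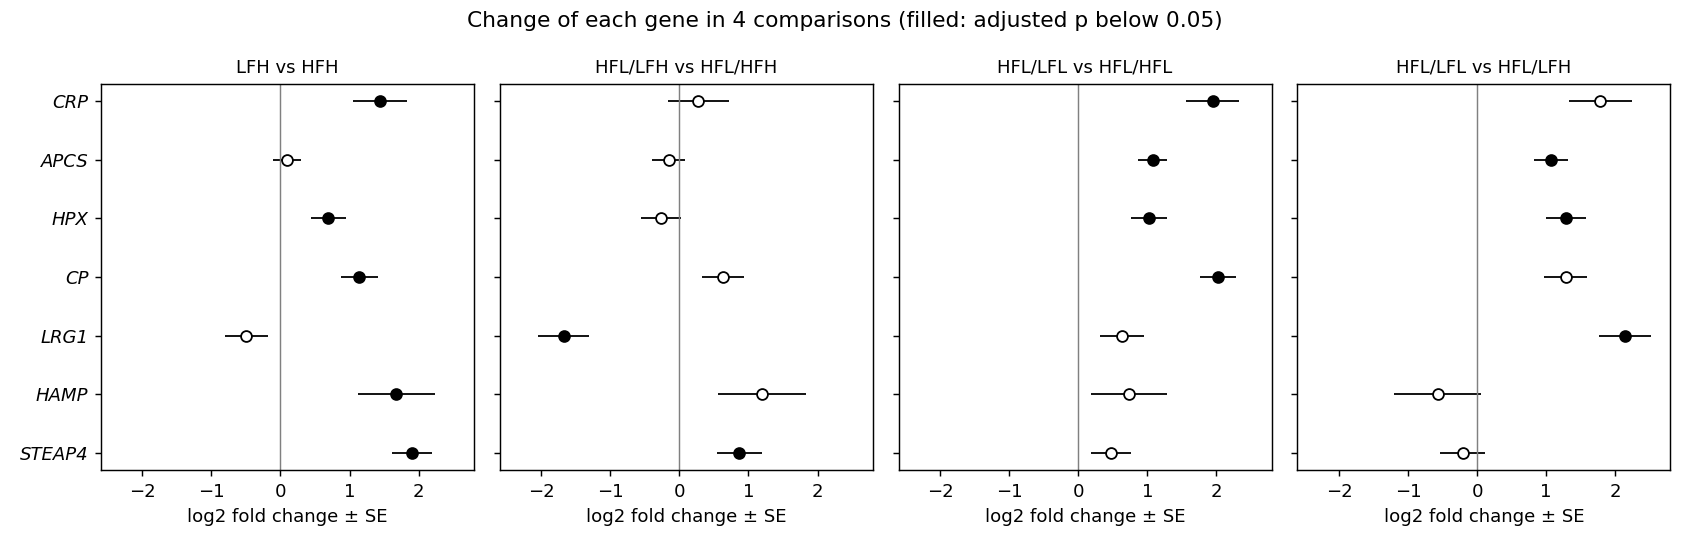
Log2 fold change (x axis) of each gene (y axis), first group over second, with the standard error as a bar; filled points have an adjusted p below 0.05 in edgeR over 7750 genes. The panels are low against high fat at 3 vitC histories, and low against high vitC after the switch to low fat; LRG1 lies at -1.67 in the second panel and 2.14 in the last.

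The question of vitC after the switch to low fat was asked by HFL/LFL against HFL/LFH. CRP, APCS, HPX, LRG1 and CP are also on the list of genes that the study drew from this contrast in these animals, so their direction here is not independent evidence. With 6 animals in each group, 3 of the 7 were higher in HFL/LFL, beside 0.219% of all tested genes that differed, which is 17 genes, and 0.155% that were higher. LRG1 was higher in HFL/LFL by 2.14 (SE 0.37, 4.42-fold, adjusted p = 0.00342, edgeR). APCS was higher by 1.07 (SE 0.24, adjusted p = 0.0378, edgeR) and HPX by 1.29 (SE 0.30, 2.44-fold, adjusted p = 0.0435, edgeR).

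CP (1.28, SE 0.31, 2.43-fold, adjusted p = 0.0552) and CRP (1.79, SE 0.45, 3.45-fold, adjusted p = 0.0645) fell just short in edgeR. HAMP was at -0.57 (SE 0.63) and STEAP4 at -0.21 (SE 0.32), neither past the threshold. HAMP ran from -1.50 to -0.56 under other settings and from -1.40 to -0.37 with 1 animal left out, and passed in 0 of these fits. Its medians were 270.1 CPM in HFL/LFL and 1084 in HFL/LFH. The ranges of the groups overlapped for all 7 genes, while those of 0.503% of tested genes did not. An edgeR fit of these 12 animals alone left 0 genes past the threshold, with an adjusted p of 0.281 to 0.298 for LRG1, APCS, HPX and CP, while DESeq2 passed LRG1, APCS, HPX, CP and CRP. APCS and HPX each lost the call when any of 8 of the 12 animals was left out, whereas LRG1 kept it in all 12 fits.

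The 6 HFL/LFL animals differed widely, and mostly in the same order. Animal 44 was the lowest of the 6 in CRP, APCS, HPX, CP and LRG1, and without it all 5 of these genes passed (adjusted p of 0.00955 for CRP and 0.0111 for CP, edgeR). Animal 49 was the highest in APCS, HPX, CP and STEAP4, and animal 53 in CRP, LRG1 and HAMP. Without animal 49 the adjusted p was 0.159 for APCS and CP and 0.178 for HPX (edgeR). Without animal 17, which was second lowest in CRP, APCS, HPX and LRG1, CRP (adjusted p = 0.0259, edgeR) and CP (adjusted p = 0.0496, edgeR) passed. HAMP did not follow: animal 49 had 191 CPM and animal 44 had 1114.

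**Figure D3:**
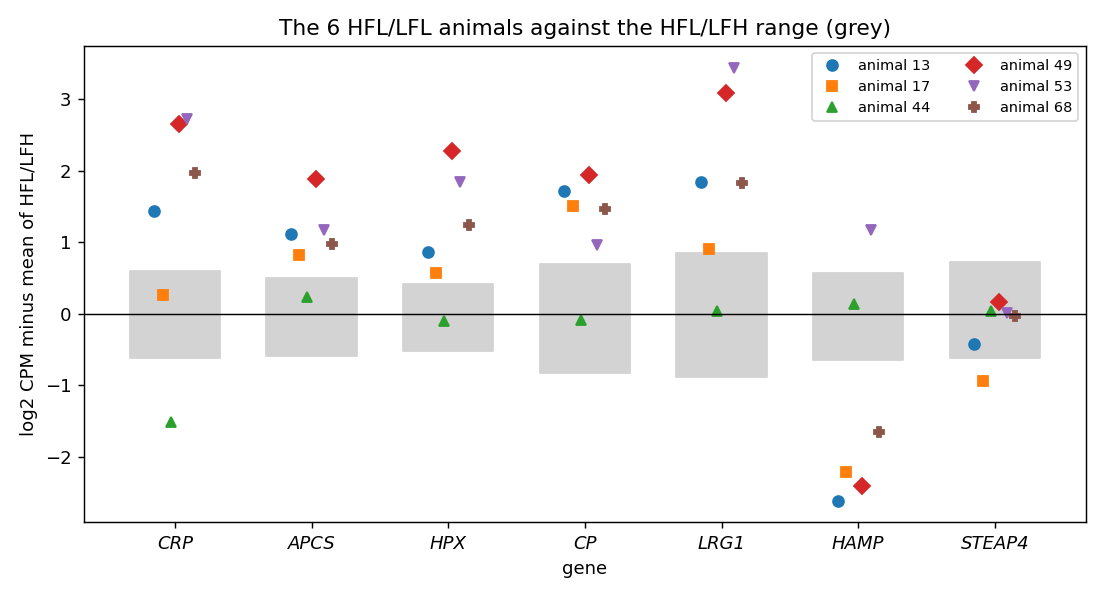
The 6 HFL/LFL animals (symbols) for each gene (x axis), as log2 CPM minus the mean of HFL/LFH (y axis); grey boxes span the lowest to the highest of the 6 HFL/LFH animals. Animal 44 lies at or below the middle of the grey boxes in CRP, HPX and CP, while animals 49 and 53 lie above them from CRP to LRG1.

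None of the 52 tested genes of the lists around the 7 passed in this contrast with edgeR. At an unadjusted p under 0.05 there were 11, where 11.0% of all tested genes were, and DESeq2 passed 2, limma voom 1 and limma on the variance-stabilized values 0. SERPINA3 was at 0.28 (SE 0.25), AGT at -0.05 (SE 0.22), TNF at 1.08 (SE 0.45) and ALB at -0.32 (SE 0.37). Among cell markers, 2 of 51 tested passed in edgeR, both higher in HFL/LFL: MMP25, a matrix metalloproteinase of neutrophils, by 2.06 (SE 0.43, adjusted p = 0.0237, edgeR), and KRT23, a keratin used as a cholangiocyte marker, by 1.94 (SE 0.44, adjusted p = 0.0378, edgeR). Without adjustment 17 of the 51 markers were under 0.05, beside the same 11.0% of all tested genes, among them 5 of 9 for neutrophils, 3 of 6 for stellate cells and fibroblasts, 3 of 5 for endothelial cells and 3 of 8 for B and plasma cells. DESeq2 passed 4 of the 51, and 3 of these were neutrophil markers, while limma voom and limma on the variance-stabilized values passed 2 each. The median log2 difference of the 9 neutrophil markers was 1.12, beside 0.005 over all genes. Their summed levels overlapped, at 152 to 200.4 CPM in HFL/LFL and 111 to 261 in HFL/LFH, but LTF, with a mean of 156 CPM over all animals, makes up most of that sum. Of these markers, ELANE was at 0 in 17 of the 44 animals and MPO in 24. The part of neutrophils and the other cells in the level of the 7 genes was not tested.

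At high fat after the HFL start, HFL/HFL against HFL/HFH gave 0 of 7 in edgeR, beside 0.0129% of all tested genes, and 0 at an unadjusted p under 0.05, where 3.37% of all genes were, and 0 with DESeq2, with limma voom and with limma on the variance-stabilized values. The estimates ran from -0.17 for LRG1 (SE 0.32) to 0.19 for STEAP4 (SE 0.29), with HPX at -0.003 (SE 0.261). The interaction, the difference of the vitC contrast between low and high fat, passed for 0 of 7 and for 0% of all tested genes. At an unadjusted p under 0.05 there were 5 of the 7, where 8.23% of all genes were: LRG1 (2.31, SE 0.48), CRP (1.67, SE 0.59), CP (1.40, SE 0.40), HPX (1.29, SE 0.39) and APCS (1.23, SE 0.32). These are the 5 genes on the study's list from HFL/LFL and HFL/LFH, which are one side of the interaction, so the count is no independent evidence. LRG1 had the lowest p of all 7750 genes (adjusted p = 0.151, edgeR), which was 0.00789 with DESeq2, 0.00811 without HFL/LFL animal 44 and 0.0377 without animal 17. limma voom and limma on the variance-stabilized values passed 0 of 7. For APCS and HPX, which passed at low fat, a difference from the contrast at high fat was thus not shown in edgeR or with these tools, and for LRG1 it depended on the tool and on single animals.

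The switched groups were also set against the reference groups that never changed feed. HFL/LFH against LFH asked whether livers on low fat and high vitC ended at the control level, and 0 of the 7 differed in edgeR, beside 0.361% of all tested genes. HPX (-0.56, SE 0.28) was under 0.05 without adjustment, as were 10.4% of all genes, and DESeq2 and both limma fits passed 0. The intervals were wide, with SEs of 0.22 for APCS to 0.59 for HAMP. HFL/LFL against LFH gave 2 of the 7, both higher in HFL/LFL, beside 7.91% of all tested genes that differed and 4.43% that were higher: LRG1 by 1.57 (SE 0.33, 2.96-fold, adjusted p = 0.00281, edgeR) and APCS by 0.92 (SE 0.22, 1.89-fold, adjusted p = 0.00774, edgeR). CRP (1.202, SE 0.41), CP (0.79, SE 0.28) and HPX (0.73, SE 0.27) did not pass. Cell markers moved in this comparison as well, with 10 of 51 called in edgeR, all higher in HFL/LFL, among them 3 of 9 for neutrophils (median log2 0.86), 2 of 4 for cholangiocytes (1.04) and 2 of 8 for B and plasma cells (0.56), beside a median of 0.03 over all genes. Of the 52 genes of the lists around the 7, 6 were higher and 1 lower. The part of the cell makeup in the level of the 7 genes was not tested. These comparisons share the LFH animals with LFH against HFH, and the HFL/LFL and HFL/LFH animals with the contrasts above. LRG1 and APCS are on the study's list from HFL/LFL against HFL/LFH, so their count against LFH is not independent evidence. Without HFL/LFL animal 44, all 5 of the genes that were highest in HFL/LFL passed, and without animal 17 LRG1, APCS, CRP and HPX did. Without LFH animal 46 CP passed too, without animal 49 APCS did not (adjusted p = 0.0601, edgeR), and a fit of these groups alone left LRG1 at an adjusted p of 0.0576 (edgeR).

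Among the groups that stayed on high fat, STEAP4 was the only one of the 7 genes to pass in edgeR. HFL/HFL against HFH, which compared low with high vitC over the whole study, gave 1 of 7, beside 0.271% of all tested genes that differed and 0.116% that were higher in HFL/HFL. Per the study, HFH animals took in more energy than HFL animals in the first 16 weeks, so this contrast is not of vitC alone. STEAP4 was higher in HFL/HFL by 1.40 (SE 0.28, 2.64-fold, adjusted p = 0.0219, edgeR), with the second lowest p of all tested genes, although the ranges overlapped. The call was lost in a fit of these groups alone (adjusted p = 0.134, edgeR) and without HFH animal 61, 1 or 14 or HFL/HFL animal 12 or 81 (adjusted p of at most 0.0794, edgeR). Among cell markers, 0 of 51 passed in edgeR here, 16 were under 0.05 without adjustment, beside 17.3% of all tested genes (4 of 5 endothelial, 3 of 6 macrophage and 3 of 6 stellate cell and fibroblast markers among them), DESeq2 passed 2, limma voom 4 and limma on the variance-stabilized values 0. Their part in the level of STEAP4 was not tested. HFL/HFH against HFH gave 0 of 7 in edgeR, beside 0% of all tested genes. STEAP4 was at 1.21 (SE 0.30) there, the only one of the 7 under 0.05 without adjustment, as were 6.01% of all genes, and DESeq2 and both limma fits passed 0. Both comparisons share the HFH animals, in which STEAP4 was lowest.

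How the genes varied together between animals was read within groups, so that differences between group means did not enter. Differences in spread did enter. HFL/LFL had the largest SD of log2 CPM for CRP (1.63), APCS (0.53), HPX (0.87), CP (0.73) and LRG1 (1.28), so its animals weigh more in r. Each animal's log2 CPM was taken as its deviation from the mean of its group, and r was computed over the 44 deviations for each of the 21 pairs, with p from 100000 permutations of animals within groups, two-sided, adjusted over the 21 pairs. For 9 pairs the adjusted p was under 0.05, and all 9 lay among the 10 pairs of CRP, APCS, HPX, CP and LRG1. By Spearman's rho there were 8.

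HPX and LRG1 were the closest pair. Their r was 0.72 and rho 0.67, with p = 1e-05 for r by permutation, the smallest that these permutations can give (adjusted p = 0.00021 by permutation). Without the 2 animals farthest from the median of HPX, r was 0.74. Of all 30027375 pairs of tested genes, 0.59% had an r at least as high, and the median over all pairs was -0.001. APCS and HPX followed with r = 0.65 and rho = 0.63 (adjusted p = 0.000525 by permutation), then CRP and HPX with r = 0.63 and rho = 0.49 (adjusted p = 0.0007 by permutation). For these, r without the 2 farthest animals was 0.54 and 0.52.

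HPX and CP had r = 0.58 and rho = 0.54, CRP and LRG1 r = 0.54 and rho = 0.27, APCS and LRG1 r = 0.53 and rho = 0.53, and CRP and APCS r = 0.53 and rho = 0.51. CP and LRG1 had r = 0.48 and rho = 0.46, and APCS and CP r = 0.43 and rho = 0.38. Their adjusted p ranged from 0.00139 to 0.0207 by permutation of r. Of all gene pairs, 2.56% reached the r of HPX and CP, 5.20% that of CP and LRG1, and 7.24% that of APCS and CP. For CRP and LRG1 the rank correlation did not pass (adjusted p = 0.229 by permutation), and r was 0.36 without HFL/LFL animal 44 and 0.15 without the HFL/LFL group. CRP and CP were not shown to vary together (r = 0.25, rho = 0.01, p = 0.169 by permutation, adjusted p = 0.296), and 18.7% of all gene pairs had an r at least as high.

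The places of the genes in each other's lists of similar genes varied. Among the 6201 better covered genes compared, the 3 with the highest r with CRP were HPX, LRG1 and APCS. HPX came at place 1 for APCS, and LRG1 at place 5 for HPX. CRP came at place 28 for APCS and 77 for LRG1, and APCS at place 83 for LRG1. For CP, HPX came at place 735, LRG1 at 1154 and APCS at 1358, while r with SEL1L, PCSK6 and DPYD was 0.84 to 0.86.

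**Figure D4:**
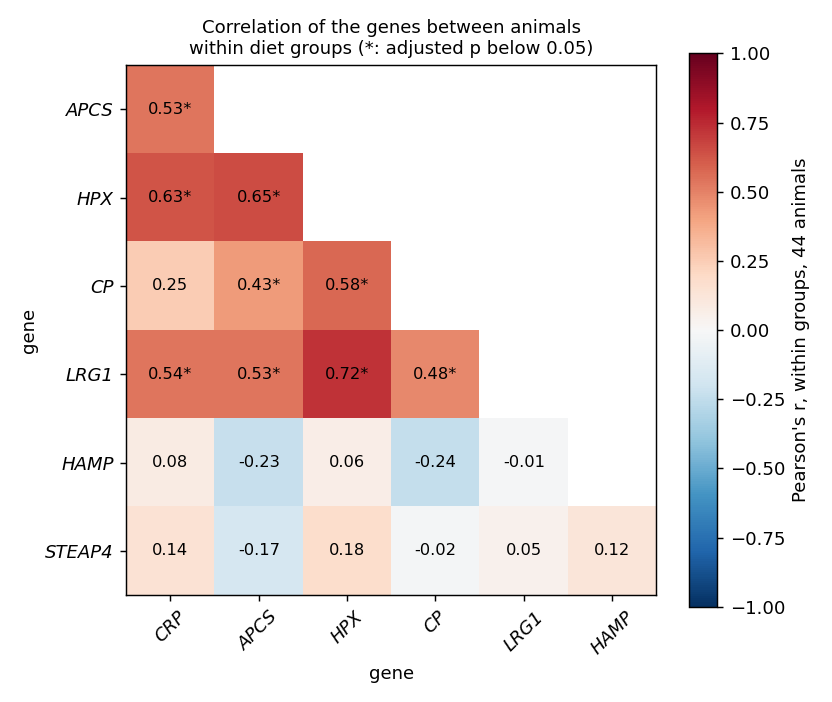
Pearson's r of log2 CPM between the 7 genes over 44 animals after subtraction of the group means; both axes are genes and the colour gives r. Values among CRP, APCS, HPX, CP and LRG1 run from 0.25 to 0.72, and those with HAMP or STEAP4 from -0.24 to 0.18; a star marks an adjusted p below 0.05 over 21 pairs.

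No pair with HAMP or STEAP4 passed. Their 11 pairs, with each other and with the other 5 genes, ran from r = -0.24 (CP and HAMP) to 0.18 (HPX and STEAP4), with an adjusted p of at least 0.277 by permutation. HAMP and STEAP4 with each other had r = 0.12 and rho = 0.18.

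Within single groups the shared variation was not equal. The median r of the 10 pairs among CRP, APCS, HPX, CP and LRG1 was 0.86 in HFL/LFL, with a range of 0.55 to 0.96, and 0.68 in HFL/HFL, with 0.40 to 0.85. It was 0.46 in HFL/LFH, 0.40 in HFH, 0.38 in LFH and 0.04 in HFL/HFH, where 5 of the 10 were above 0. HPX and LRG1 had r = 0.96 in HFL/LFL (n = 6) and -0.20 in HFL/HFH (n = 6). Groups hold 6 to 10 animals, so these are descriptions, and the difference between groups was not tested. Without the whole HFL/LFL group, or without HFL/HFL, 7 of the 21 pairs passed, and without animal 44 alone 6 did.

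The genes outside the 7 whose within-group pattern was most like each were named over the 44 animals. For APCS they were FGG, a fibrinogen chain (r = 0.64), GUCD1 (0.62) and SERPINA10, a protease inhibitor of coagulation (0.61). For HPX they were SERPINA10 (0.74), SYNGR2 (0.73) and AGT (0.72). For LRG1 they were TTC7A (0.73), SEC61A1, a channel subunit of the endoplasmic reticulum (0.71), and SURF4, a receptor for cargo leaving that compartment (0.70). CRP's were lower, with AFMID, TMEM11 and SAYSD1 at 0.48 to 0.49. For CP they were SEL1L, of the degradation machinery of the endoplasmic reticulum (0.86), the protease PCSK6 (0.86) and the pyrimidine enzyme DPYD (0.84). HAMP was nearest to PNRC1 (0.57), TRPV4 (0.56) and TP53RK (0.53), and STEAP4 to TARDBP (0.61), GNG2 (0.59) and EBI3 (0.59).

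The deviations of the 7 genes were also set against those of 9 cell marker lists (mean log2 CPM of each list) and the total count, which makes 70 relations, adjusted together. HAMP fell with the erythroid markers, HBA1 and ALAS2, with r = -0.62 and rho = -0.68 (p = 0.00014 for r, adjusted p = 0.0049 by permutation), and r = -0.60 without the 2 animals farthest in the markers. HBA2 had the same counts as HBA1 and was counted once. CP rose with ALB, with r = 0.68 and rho = 0.65 (p = 1e-05 for r, the smallest that can be reached, adjusted p = 0.0007 by permutation), as did APCS with r = 0.47 (rho = 0.42, adjusted p = 0.0428 by permutation) and HPX with r = 0.43 (rho = 0.39, adjusted p = 0.0443 by permutation). For APCS and HPX, r was 0.32 and 0.29 without the 2 farthest animals, and the rank correlations did not pass (adjusted p = 0.102 and 0.120 by permutation). These relations are values measured beside each other. What the cell makeup or the amount of blood in a piece contributed was not tested.

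CP rose also with the endothelial markers (r = 0.48, rho = 0.50, adjusted p = 0.0345 by permutation) and fell with the cholangiocyte markers (r = -0.46, rho = -0.41, adjusted p = 0.0428 by permutation). HPX fell with the stellate cell and fibroblast markers (r = -0.46, rho = -0.41, adjusted p = 0.0438 by permutation). The total count went with CP (r = 0.44, rho = 0.48) and LRG1 (r = 0.38, rho = 0.39), each with an adjusted p of 0.0438 by permutation of r. By rank, the relations of CP with the cholangiocyte markers, HPX with the stellate cell and fibroblast markers and LRG1 with the total count did not pass (adjusted p = 0.102 by permutation for each). For CRP and STEAP4 no list passed, nor did the total count. The neutrophil and macrophage lists passed with none of the 7 genes.

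**Figure D5:**
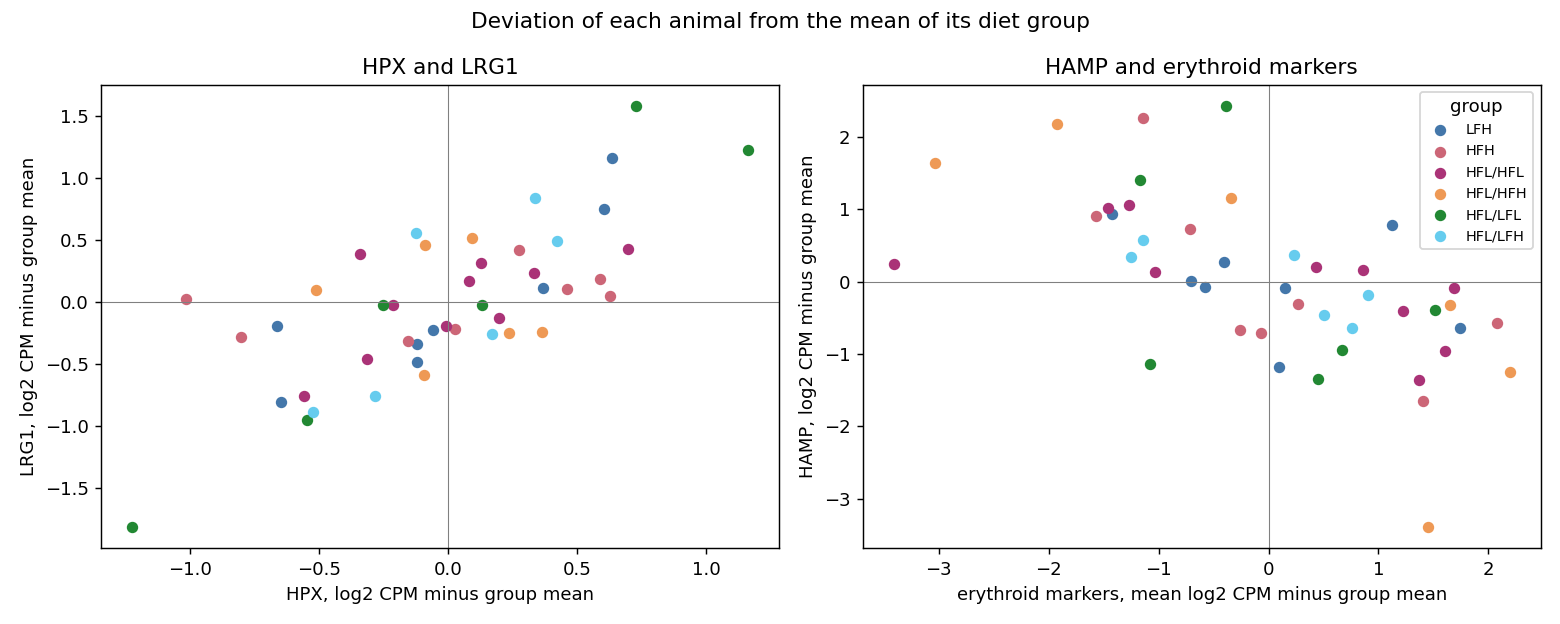
Deviation of each animal's log2 CPM from the mean of its group, 44 animals coloured by group. Left, LRG1 (y axis) rises with HPX (x axis), r = 0.72; right, HAMP (y axis) falls with the mean of the erythroid markers HBA1 and ALAS2 (x axis), r = -0.62.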

How the data were processed

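Liver RNA from 44 guinea pigs was sequenced, 1 library per animal. Per the labels and the study's methods, bcl2fastq (2.19), Trimmomatic (0.38.0), HISAT2 (2.1.0) and StringTie (2.1.1) were used, and the authors deposited raw counts per gene symbol. How the StringTie output became counts is not given in the sources used here, nor is the use of strand. Human orthologues were used to improve the gene names, and how guinea pig genes that share an orthologue were handled is not given either, so a symbol may stand for more than 1 gene. The deposited log2 values are the same counts after the variance-stabilizing transformation of DESeq2. No column of either table was left out. Total counts were 21133807 to 35427724 per animal.

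Counts of genes with a total of at least 200 were scaled by TMM (factors 0.715 to 1.38) and fitted in edgeR (4.0.16, R 4.3.3) with a mean for each of the 6 groups over all 44 animals. Quasi-likelihood F tests were adjusted by Benjamini-Hochberg over 7750 genes in each comparison, with a threshold of 0.05. The SE is the log2 fold change divided by the square root of F. Log2 CPM used a prior count of 2. In a simulation of HFL/LFL against HFL/LFH over 7750 genes, 121 of 200 genes changed by a log2 of 1 were recovered, with 5 false calls. Correlations used scipy (1.17.1) and pandas (2.3.3).

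Alternatives were other normalizations and filters, the compared groups alone, limma (3.58.1) with voom weights or on the deposited log2 values, DESeq2 (1.42.0), and each animal left out in turn. The 7 genes and all lists were chosen with earlier results of these data known. From each list the 3 genes with the lowest p in LFH against HFH were named, with marker genes that passed in HFL/LFL against HFL/LFH, and for each of the 7 the 3 other genes (mean of at least 1 CPM) with the highest within-group r. Some genes that this rule picks are not reported here. Many listed symbols were not analysed here. No sequence or position is printed, since the annotation at hand is of another build. Animals are the replicates. In edgeR the spread between them was estimated for each gene over all 6 groups. The SE and p of a contrast therefore do not measure the spread of the groups compared alone. In HFL/LFL the SD of log2 CPM was 1.63 for CRP and 1.28 for LRG1, beside 0.41 and 0.73 in HFL/LFH.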

Additional observations from a re-analysis of the deposited data

Results flagged for a closer look

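HAMP in HFH animal 88 was far above the rest of its group, at 1019 CPM (33895 counts), while the other 7 animals lay between 67.3 and 398.8 CPM. The gap to the next animal was 0.652 of the group's range, above Dixon's 95% critical value of 0.526 for 8 animals. Of the 42 combinations of gene and group examined it was the only such animal, and chance alone gives about 1 in 20. Without it HAMP was higher in LFH than in HFH by 2.27 on the log2 scale in place of 1.68.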

How the results depend on the processing

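Of 560 values of the 7 genes under other settings, 535 kept their direction and their side of the threshold, 8 lost a call and 10 gained one. With 1 animal left out, this held for 1043 of 1120 values, 31 lost a call and 17 gained one. No called value changed its direction, and sign changes of uncalled values numbered 7 and 29. For HFL/LFH against HFL/HFH, limma voom passed 4 of the 7 genes, and 1 to 3 passed with an animal left out. For HFL/LFL against HFL/LFH, 0 passed with the compared groups alone, 1 with limma on the deposited log2 values and 5 with DESeq2, and 1 to 5 with an animal left out. For HFL/LFL against LFH, 1 passed with the groups alone and 4 with DESeq2, and 1 to 5 with an animal left out. For HFL/HFL against HFH, 0 passed with the groups alone, and 0 to 1 with an animal left out. For the interaction, 1 passed with DESeq2, and 0 to 1 with an animal left out. The cause was not tested. The fits of the groups alone held fewer animals and also took the spread from those animals only. Over all genes, the calls for HFL/LFL against HFL/LFH were 17 with edgeR, 80 with DESeq2, 40 with limma voom, 11 with limma on log2 values and 0 with the groups alone. For HFL/HFL against HFH they were 21, 147, 557, 35 and 0. For HFL/LFH against LFH they were 28 with edgeR, 64 with DESeq2, 17 with limma voom and 3 with the groups alone, and for HFL/LFL against LFH 613 and 262 with the groups alone. For the interaction they were 0 and 3 with DESeq2, and for HFL/HFL against HFL/HFH 1, and 0 with edgeR's own filter, limma on log2 values or the groups alone. Upper-quartile scaling moved the median of all genes in LFH against HFH from -0.064 to -0.131. The number of correlated pairs was 9, and 6 to 9 with an animal left out. CRP had the lowest counts of the 7 genes, with as few as 19, and what depth contributed to its spread was not tested. No paired analysis was possible because each liver came from a different animal and numbers are not shared between groups.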
